A study of Mus musculus with 8 samples.

Results

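Structural proteins of central nervous system myelin are encoded by the 9 genes described here: Mbp, Mog, Mag, Cnp, Mobp, Mal, Opalin, Cldn11 and Gpm6b. They were taken by symbol from the table of expression values, in which 9 of 24346 listed genes are these. RNA was sequenced from induced immature oligodendrocytes (iOLs) of mice, with 4 libraries from Med23+/+ cells and 4 from Med23-/- cells. The cells began as primary oligodendrocyte precursor cells (OPCs), isolated from brains at postnatal day 7 by panning on an antibody to CD140a, the PDGF receptor on OPCs, after panning had removed endothelial cells and microglia. In both genotypes OPCs were expanded in PDGF-AA (10 ng/ml) and NT-3 (1 ng/ml), and differentiation was then started for 1 day with the thyroid hormone triiodothyronine (T3, 15 nM) and ciliary neurotrophic factor (10 ng/ml). Med23, a subunit of the Mediator complex that links transcription factors to RNA polymerase II, was deleted with loxP-flanked alleles and Olig1-Cre, which is active in the oligodendrocyte lineage. Littermates with the floxed alleles and no Cre are the controls of that line. How many animals or separate cultures stood behind each library was not given in the sources used here, so the p-values below measure the spread between these libraries, which may be partly technical.

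Oligodendrocytes wrap axons in layers of compacted membrane, and each of these proteins has its place in that sheath. Mbp binds the cytoplasmic faces of the membrane together, Cnp keeps cytoplasmic channels open between them, Mag sits on the innermost wrap against the axon and Mog on the outermost surface. Cldn11 forms the tight junctions that seal the layers, Mobp lies at the cytoplasmic faces, Mal organises lipid rafts, Opalin is a glycoprotein of the paranodal loops, and Gpm6b is a proteolipid family member that neurons and astrocytes also express. These genes are switched on at different times, Cnp early in the lineage and Mog, Mobp and Opalin late.

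Levels are given in FPKM, a fragment count scaled to sequencing depth and to transcript length, which can be compared between genes. Med23 itself, the targeted gene, was 12.7, 12.2, 12.6 and 12.6 FPKM in Med23+/+ replicates 1 to 4 and 8.40, 7.93, 8.49 and 8.21 FPKM in Med23-/- replicates 1 to 4. All 4 Med23-/- libraries were below all 4 Med23+/+ libraries, and 65.8% of the mean remained (log2 fold change -0.55 ± 0.07 (SE), adjusted p = 0.000353, limma). Which exons are deleted was not given in the sources used here, so reads from the undeleted part of the transcript and reads from cells with an intact allele cannot be told apart. The study reports that a western blot of primary OPC lysates from this line bore out the deletion of Med23. That blot measured protein in OPCs, not RNA in these libraries. The lineage markers were high in both genotypes. Olig1, whose gene drives Cre, was 706 ± 169.8 and 686 ± 108 FPKM (mean ± SD, n = 4 in Med23+/+ and n = 4 in Med23-/-), and Olig2 was 260.5 ± 33.7 and 380.1 ± 104 FPKM. Sox10, the factor needed for oligodendrocyte differentiation, was 255 ± 23.1 and 183 ± 32.4 FPKM (log2 fold change -0.49, adjusted p = 0.0203). Median-ratio size factors of the libraries lay between 0.977 and 1.02, and 15941 to 16363 genes were above 0 in the Med23+/+ libraries against 16408 to 16469 in the Med23-/- libraries.

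Promoter windows were read from RefSeq on GRCm38.p6, running from 250 bases before each annotated start to 50 after it, and 8 of the 9 genes had at least 1 window. Mbp had none, so its promoter letters were not examined. Windows of 4 genes are shown because they cover the range of change: Mag with the largest fall, Cnp and Cldn11 with moderate falls, and Gpm6b, which passed neither limit of the test. Each is printed 5′ to 3′ on the strand of the gene, from 250 bases before the start through the first 30 bases of the transcript, with matched letters in capitals. The letters searched on both strands were GGGCGG, the GC box that Sp1 family factors bind; ACAAAG, a core bound by Sox factors; CTGGCAC, bound by the myelin regulatory factor Myrf; CCAAT; and TATAAA.
Mag, chr7:30914834-30915113, minus strand: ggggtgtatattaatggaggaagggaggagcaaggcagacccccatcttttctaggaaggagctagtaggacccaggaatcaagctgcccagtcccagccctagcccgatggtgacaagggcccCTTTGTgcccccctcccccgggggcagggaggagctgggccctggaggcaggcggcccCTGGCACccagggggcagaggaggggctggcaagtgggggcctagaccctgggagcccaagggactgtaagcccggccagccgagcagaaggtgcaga
Cnp, chr11:100574689-100574968, plus strand: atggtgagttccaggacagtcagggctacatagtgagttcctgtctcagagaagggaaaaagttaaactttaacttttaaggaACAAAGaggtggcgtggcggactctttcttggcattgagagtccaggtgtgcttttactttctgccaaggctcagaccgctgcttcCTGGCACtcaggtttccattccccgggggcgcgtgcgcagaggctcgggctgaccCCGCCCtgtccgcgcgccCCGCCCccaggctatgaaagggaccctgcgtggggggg
Cldn11, chr3:31149670-31149949, plus strand: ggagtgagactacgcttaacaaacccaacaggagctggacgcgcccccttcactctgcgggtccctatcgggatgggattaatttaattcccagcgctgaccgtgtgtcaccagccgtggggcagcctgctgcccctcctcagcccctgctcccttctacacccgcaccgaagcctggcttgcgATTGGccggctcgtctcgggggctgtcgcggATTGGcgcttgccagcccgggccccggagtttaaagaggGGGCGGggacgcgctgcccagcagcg
Gpm6b, chrX:166238693-166238972, plus strand: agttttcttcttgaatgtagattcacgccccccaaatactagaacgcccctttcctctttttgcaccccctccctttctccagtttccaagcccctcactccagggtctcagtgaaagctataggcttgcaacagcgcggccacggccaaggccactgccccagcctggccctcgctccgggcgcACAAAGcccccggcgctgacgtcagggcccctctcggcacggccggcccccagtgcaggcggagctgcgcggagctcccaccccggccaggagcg
In Mag, which has 3 windows of which the first is shown, the capitals mark ACAAAG on the opposite strand at 126 bases and CTGGCAC at 68 bases upstream of the start. In Cnp they mark ACAAAG at 167, CTGGCAC at 81 and GGGCGG, on the opposite strand, at 26 and 8 bases upstream. In Cldn11 they mark CCAAT on the opposite strand at 66 and 35 bases upstream and GGGCGG at 4 bases after the start. Gpm6b holds ACAAAG at 65 bases upstream. Over the 8 genes, counting a gene once if any of its windows held the letters, GGGCGG was present in 2 (Cnp and Cldn11), against 38.2% of all 27025 genes with a window (35.7% of 32851 windows). ACAAAG was present in 5 (Mag, Cnp, Mobp, Opalin and Gpm6b), against 21.0% of genes (18.7% of windows), and Mobp held it 6 times. CTGGCAC was present in 3 (Mag, Cnp and Opalin), against 5.73% of genes (5.01% of windows). CCAAT was present in 2 (Mag and Cldn11), against 41.1% of genes (37.4% of windows), and TATAAA in 0, against 15.7% of genes (13.6% of windows). Mog and Mal had none of the 5 in their windows. These counts describe letters in a short window, and neither occupancy nor function was measured.

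**Figure D1:**
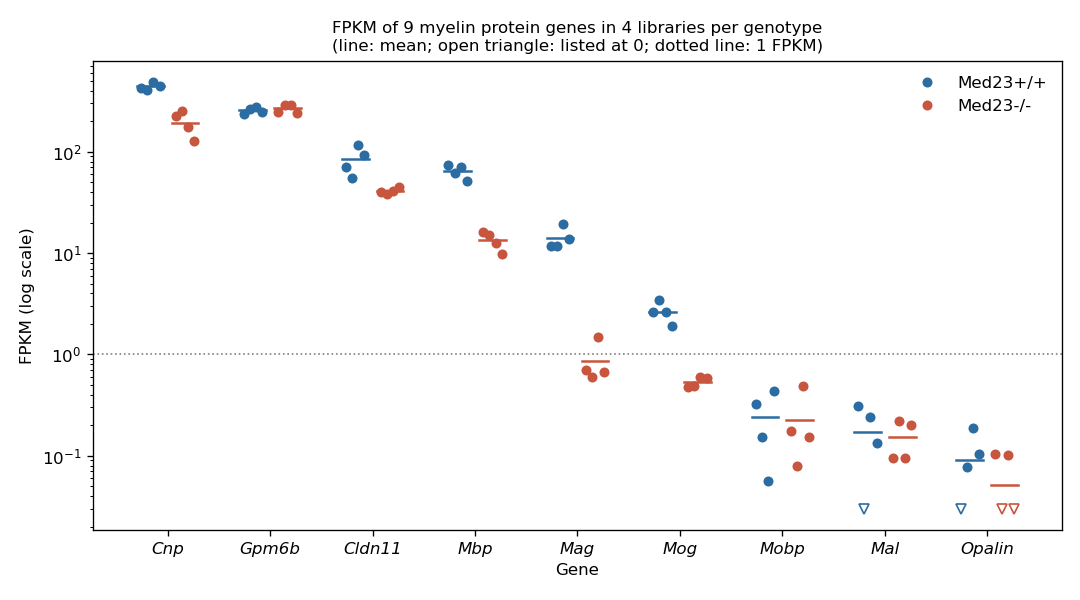
FPKM (log axis) of the 9 genes in each library, in order of the Med23+/+ mean, with Med23+/+ libraries in blue and Med23-/- libraries in red. Points are libraries, short lines are means of 4 and open triangles are libraries listed at 0; the 2 colours separate for Cnp, Cldn11, Mbp, Mag and Mog and overlap for Gpm6b, Mobp, Mal and Opalin.

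Of the 9 genes, 4 (Mag, Mbp, Mog and Cnp) were called lower in Med23-/- iOLs, by both limits of the test (a fold change over 2, adjusted p < 0.05), and 0 were called higher. Cldn11 passed the adjusted p but fell just short of the fold limit, Gpm6b passed neither, and Mobp, Mal and Opalin were below the mean of 1 FPKM needed for the test. Over all 12328 genes tested, 1.75% were called lower and 2.98% higher, 4.73% in all. By adjusted p alone, 5 of the 6 tested were lower, against 14.1% of all genes tested. In 5 of these 6 all 4 Med23-/- libraries lay below all 4 Med23+/+ libraries, against 15.3% of all genes tested in that direction and 31.6% in either. Mog and Mag reached the mean of 1 FPKM only through their Med23+/+ libraries, so the 6 genes that could be tested are not a neutral draw from the 9. The 9 were also chosen with earlier results of these data known, so these counts and shares are description only. The median log2 fold change of the 6 genes was -1.23, and that of all genes tested was -0.01. In RNA from a whole culture, fewer cells that express a gene and less RNA in each cell cannot be told apart.

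Mag, the adhesion protein that faces the axon (chromosome 7, 30899176 to 30914873, minus strand, mm10, GENCODE vM21), showed the largest fall of the genes tested here. It was 11.9, 11.6, 19.6 and 13.8 FPKM in Med23+/+ replicates 1 to 4, and 0.699, 0.597, 1.47 and 0.675 FPKM in Med23-/- replicates 1 to 4. The highest Med23-/- library, replicate 3, was far below the lowest Med23+/+ library. The ratio of the means was 16.5, and the log2 fold change of FPKM + 1 was -3.03 ± 0.19 (SE; 95% interval -3.45 to -2.61, adjusted p = 1.86e-05, limma). Because 3 of the 4 Med23-/- values are below 1 FPKM, this scale understates the change, and with 0.1 added in place of 1 the log2 fold change was -3.95.

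Mbp, which compacts the membrane and is required for it (chromosome 18, 82475146 to 82585637, plus strand), was 73.8, 62.3, 70.6 and 51.0 FPKM in Med23+/+ iOLs and 16.3, 15.0, 12.6 and 9.77 FPKM in Med23-/- iOLs. No Med23-/- library came near the Med23+/+ range, and the ratio of the means was 4.80 (log2 fold change -2.19 ± 0.16 (SE), 95% interval -2.55 to -1.83, adjusted p = 2.89e-05, limma). The gene has 14 annotated coding transcripts, of which 3 begin at the upstream start of the golli forms and 11 begin at or after position 82554470, where the classic myelin forms begin. The deposited value is 1 number per gene, so the forms cannot be told apart in it.

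Mog, the surface glycoprotein that appears late in myelination (chromosome 17, 37010743 to 37023398, minus strand), was far less abundant. It was 2.61, 3.44, 2.63 and 1.93 FPKM in Med23+/+ iOLs, against 0.478, 0.486, 0.602 and 0.591 FPKM in Med23-/- iOLs. All Med23-/- libraries were under 1 FPKM and all Med23+/+ libraries above it. The ratio of the means was 4.92, close to that of Mbp, but the log2 fold change of FPKM + 1 was -1.23 ± 0.14 (SE; 95% interval -1.55 to -0.91, adjusted p = 0.000264, limma). With 0.1 added in place of 1 it was -2.08.

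Cnp, the phosphodiesterase of non-compact myelin that is already expressed in young oligodendrocytes (chromosome 11, 100574904 to 100591729, plus strand), was the most abundant of the 9 in Med23+/+ iOLs. It was 430.1, 404, 488 and 445 FPKM there, and 225, 252, 174 and 127 FPKM in Med23-/- iOLs. The Med23-/- libraries did not reach the Med23+/+ range, and replicate 4 was the lowest of them. The ratio of the means was 2.27 (log2 fold change -1.23 ± 0.19 (SE), 95% interval -1.65 to -0.80, adjusted p = 0.00131, limma). Exons of Cnp overlap those of Dnajc7 on the opposite strand, whose mean was 63.6 FPKM in Med23+/+ iOLs against 49.0 FPKM in the mutant iOLs. The strand setting of the authors' quantification was not given in the sources used here, so some Cnp reads may belong to Dnajc7.

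Cldn11, the claudin of myelin tight junctions (chromosome 3, 31149920 to 31164324, plus strand), was 71.3, 55.4, 118 and 93.9 FPKM in Med23+/+ iOLs and 39.8, 38.6, 41.0 and 44.6 FPKM in Med23-/- iOLs. The ranges did not overlap, although Med23+/+ replicate 2 was only slightly above the Med23-/- libraries. The ratio of the means was 2.06, while the log2 fold change of FPKM + 1 was -0.97 ± 0.20 (SE; 95% interval -1.41 to -0.54, adjusted p = 0.00507, limma), just inside the 2-fold limit. Cldn11 thus passed the fold limit or missed it with the scale used, and it also passed without Med23+/+ replicate 1 (-1.04), without Med23+/+ replicate 2 (-1.16) or without Med23-/- replicate 4 (-1.01). The adjusted p was between 0.00145 and 0.0181 over the alternatives tried.

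Gpm6b (chromosome X, 166238911 to 166388988, plus strand) was the one gene of the 6 tested that passed neither limit. It was 238, 264, 279 and 249 FPKM in Med23+/+ iOLs and 249.6, 293, 290.2 and 241 FPKM in Med23-/- iOLs. The libraries of the 2 genotypes intermingled, and the log2 fold change was 0.06 ± 0.10 (SE; 95% interval -0.16 to 0.27, adjusted p = 0.698, limma). Its closest relative Gpm6a, another membrane proteolipid, was 330.0 ± 30.0 and 309 ± 44.7 FPKM (log2 fold change -0.10, adjusted p = 0.563).

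The other three genes were barely detected in either genotype. Mobp (chromosome 9, 120149707 to 120181484, plus strand) was 0.324, 0.152, 0.0568 and 0.436 FPKM in Med23+/+ iOLs and 0.175, 0.0797, 0.486 and 0.152 FPKM in Med23-/- iOLs. Mal (chromosome 2, 127633226 to 127656695, minus strand) was 0.312, 0, 0.242 and 0.134 FPKM, against 0.0951, 0.222, 0.0948 and 0.200 FPKM. Opalin (chromosome 19, 41061710 to 41077113, minus strand) was 0, 0.0773, 0.186 and 0.104 FPKM, against 0.103, 0, 0.102 and 0 FPKM. For each of the 3 the libraries of the 2 genotypes overlapped, and a difference was not detectable at these levels. An exact two-sided permutation test of log2(FPKM + 1) gave p = 0.971 for Mobp, 0.857 for Mal and 0.486 for Opalin. The same test gave 0.0286, the smallest p that 4 libraries against 4 allow, for Mag, Mbp, Mog, Cnp and Cldn11, and 0.514 for Gpm6b.

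**Figure D2:**
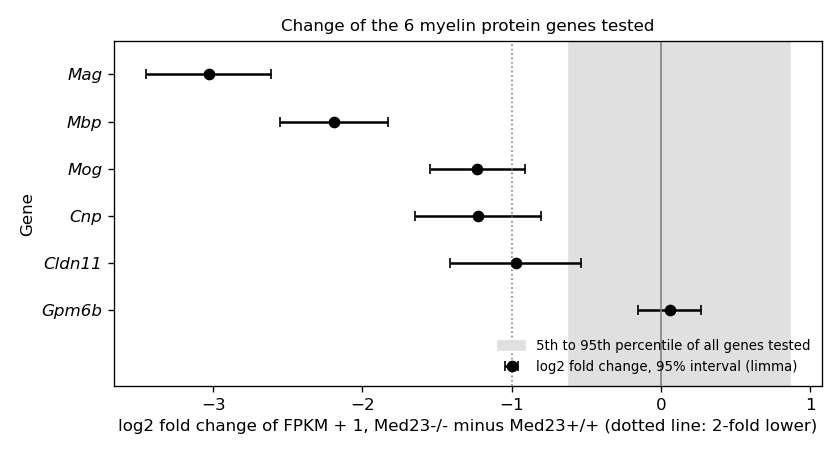
Log2 fold change of FPKM + 1 (Med23-/- minus Med23+/+) for the 6 genes tested; points are limma estimates, bars their 95% intervals, the dotted line marks a 2-fold fall and the grey band holds the middle of all 12328 genes, from -0.62 to 0.86 (5th to 95th percentile). Mag and Mbp lie wholly beyond the 2-fold line, the intervals of Mog, Cnp and Cldn11 cross it, and Gpm6b lies on 0.

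The 6 tested genes stood at different percentages of their Med23+/+ means. In the 4 Med23-/- libraries Mag was at 4.19% to 10.3% of its Med23+/+ mean, Mbp at 15.2% to 25.3% and Mog at 18.0% to 22.7%. Cnp was at 28.7% to 57.0%, Cldn11 at 45.6% to 52.7% and Gpm6b at 93.7% to 114%. Mag was thus below the range of the other genes, and Cnp overlapped Cldn11. Cnp was lowest in Med23-/- replicates 3 and 4 and Mbp in replicate 4, whereas Mag was highest in replicate 3, so the genes did not share 1 order of libraries.

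**Figure D3:**
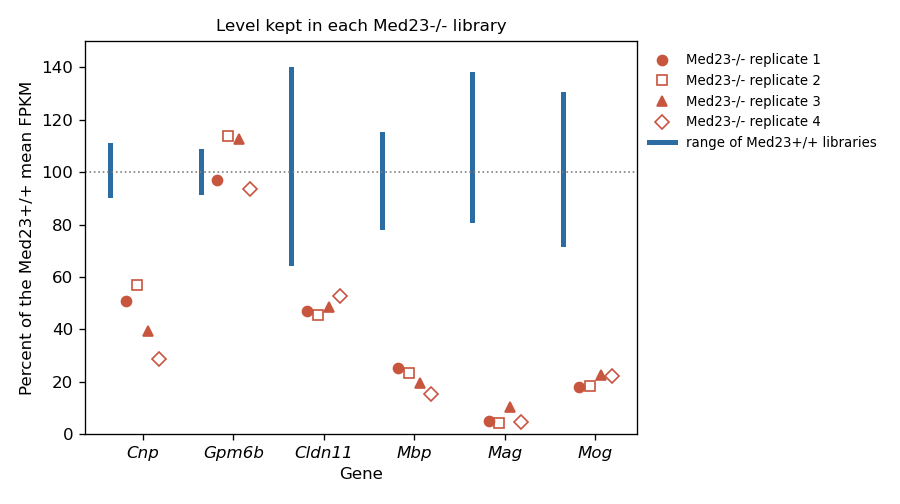
FPKM of each Med23-/- library as a percent of the Med23+/+ mean of the same gene; the 4 symbols are the 4 libraries and the blue bar is the range of the 4 Med23+/+ libraries. Mag stays at or below 10.3%, Mbp and Mog lie between 15.2% and 25.3%, Cnp and Cldn11 between 28.7% and 57.0%, and Gpm6b lies around 100%.

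Ratios of genes within a library, which do not depend on scaling between libraries, also differed between genotypes. The Mbp to Mag ratio was 3.61 to 6.22 in Med23+/+ libraries and 8.60 to 25.2 in Med23-/- libraries. The Mbp to Mog ratio was 18.1 to 28.3 and 16.5 to 34.2, with ranges that overlapped and a difference of mean log2 ratio of 0.00. The Cnp to Gpm6b ratio was 1.53 to 1.81 in Med23+/+ libraries and 0.525 to 0.901 in Med23-/- libraries. Of the 15 pairs of the 6 genes, 12 had log2 ratios that did not overlap between genotypes. The exceptions were Mbp with Mog, Mog with Cnp, and Cnp with Cldn11. No share over other gene pairs was taken, and the 15 pairs reuse the same 6 genes. Of single genes tested, 31.6% did not overlap in either direction, so the count of pairs is description only. The Cnp to Cldn11 ratio was 4.14 to 7.29 and 2.84 to 6.53.

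The order of levels also differed between genotypes at its head. In Med23+/+ iOLs it ran Cnp, Gpm6b, Cldn11, Mbp, Mag, Mog, Mobp, Mal and Opalin, and in Med23-/- iOLs Gpm6b stood first, with Cnp second and the rest in the same sequence. Cnp exceeded Gpm6b in 4 of 4 Med23+/+ libraries, and Gpm6b exceeded Cnp in 4 of 4 Med23-/- libraries, although the Med23-/- ranges of these genes overlapped. Cldn11 and Mbp overlapped in Med23+/+ iOLs, where Cldn11 was the higher in 2 of 4 libraries, but not in Med23-/- iOLs. Mag and Mog were apart in Med23+/+ iOLs and overlapped in Med23-/- iOLs, where both were under 1 FPKM on average. Mag was still the higher in 4 of 4 Med23-/- libraries. Among all listed genes, 76.9% had a lower Med23+/+ mean than Mag and 48.2% a lower Med23-/- mean, while for Cnp these shares were 99.4% and 98.7%.

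Summed over the 9 genes, the libraries held 801 to 978 FPKM in Med23+/+ iOLs (866 ± 78.2, SD, n = 4) and 424 to 599.6 FPKM in Med23-/- iOLs (519 ± 72.3, n = 4). Cnp made up 51.1% ± 1.07 of this sum in Med23+/+ iOLs and 36.9% ± 6.22 in Med23-/- iOLs. Gpm6b went from 29.8% ± 2.12 to 52.1% ± 4.98, while its own log2 fold change was the 0.06 given above. Mbp fell from 7.47% ± 1.23 to 2.58% ± 0.338 and Mag from 1.63% ± 0.263 to 0.168% ± 0.0800. Cldn11, at 9.63% ± 2.31 and 8.08% ± 1.74, kept overlapping shares.

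**Figure D4:**
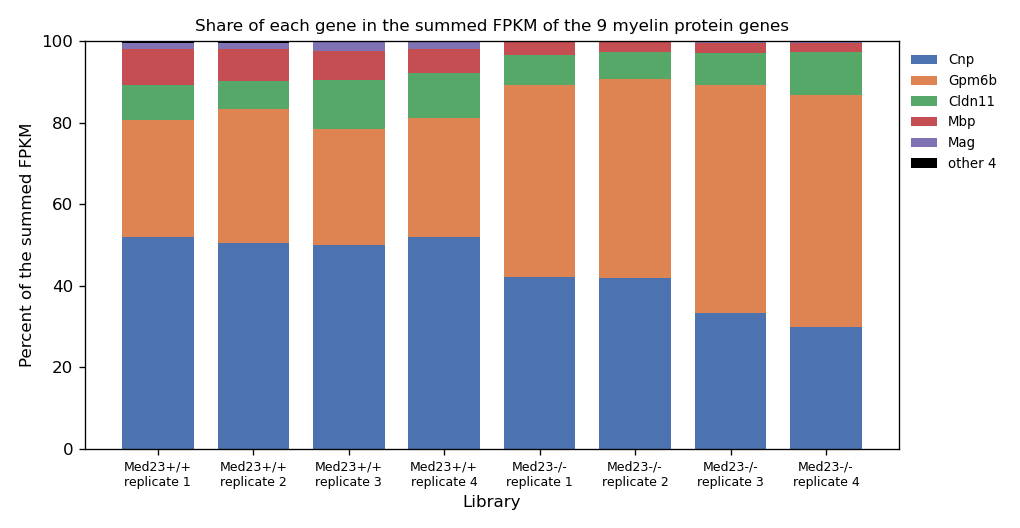
Share of each gene (percent, stacked to 100) in the summed FPKM of the 9 genes, for each library; Mog, Mobp, Mal and Opalin are drawn together as the other 4. Gpm6b takes 28.5% to 33.0% of the sum in Med23+/+ libraries and 46.9% to 56.9% in Med23-/- libraries.

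Replicates 1 and 2 and replicates 3 and 4 were also compared apart, a split that the labels do not describe as a batch. The log2 fold change of Cnp was -0.81 in replicates 1 and 2 and -1.65 in replicates 3 and 4, and that of Cldn11 was -0.67 and -1.28. On this scale of FPKM + 1, Mag (-2.95 and -3.10), Mbp (-2.05 and -2.33) and Mog (-1.43 and -1.03) differed less between the splits. Gpm6b was 0.11 and 0.01. The scale shrinks change at the low Med23-/- levels of Mag and Mog, so their gaps are not comparable with those of Cnp and Cldn11.

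The rest of the myelin sheath was followed with gene lists. Among 20 membrane partners of the 9 genes, 18 were tested, with 5 called lower and 2 called higher, and a median log2 fold change of -0.32. The 5 that fell were Tmem88b (-2.22), the semaphorin receptor Plxnb3 (-2.20), the tetraspanin Cd9 (-1.74), the axoglial adhesion molecule Nfasc (-1.44) and the proteolipid plasmolipin Pllp (-1.10). Cd9 was 742 ± 71.9 FPKM in Med23+/+ iOLs and 227 ± 55.7 FPKM in Med23-/- iOLs. The 2 that rose were Pmp22 (1.37), the tetraspan protein best known from peripheral myelin, and the gap junction gene Gjb1 (1.27). Gjb1 was low in both, at 0.311 to 0.816 FPKM in Med23+/+ and 1.09 to 4.04 FPKM in Med23-/- libraries. It reached the mean of 1 FPKM needed for the test only through its Med23-/- libraries. By adjusted p alone, 8 of the list were lower and 3 higher. Over all genes tested, 14.1% were lower and 15.9% higher by adjusted p alone, shares that also stand beside the counts of the lists below.

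Among 16 genes of the myelin cytoskeleton and cytosol, 11 were tested and 2 were called lower. Sirt2, a deacetylase abundant in myelin, was 500.1 ± 54.1 FPKM in Med23+/+ iOLs and 118 ± 28.1 FPKM in Med23-/- iOLs (log2 fold change -2.10), and Dbndd2 fell by 1.87 on the log2 scale. The gene of this list with the highest value was Tppp, which organises microtubules (0.82, adjusted p = 0.000158), and the median of the list was -0.03. By adjusted p alone, 3 were lower and 3 higher. Among 12 late oligodendrocyte genes, 5 were tested and 0 were called at either limit, from Adamts4 (-0.33) to Ptgds (0.36), with a median of 0.06; the remaining 7 were too low, and Klk6 was listed at 0 in all 8 libraries.

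Relatives of Mal and Cldn11 gave no call. Of 9 genes related to Mal (the MAL and CMTM families), 5 were tested, 0 were called, and 2 were lower and 2 higher by adjusted p alone, from Cmtm6 (-0.39, adjusted p = 0.00861) to Marveld1 (0.60, adjusted p = 0.0074). Of 19 other claudins and tight junction proteins, 4 were tested and 0 passed either limit, from Cldn12 (-0.22) to Cldn20 (0.57). Their medians were -0.06 and 0.07. Of 8 genes for the transport and local translation of Mbp RNA, all were tested and 1 was called lower. This was Fyn (-1.25), the Src family kinase that acts upstream of local Mbp translation, at 408 ± 28.4 and 171 ± 14.4 FPKM. The highest in that list was Ckap5 (0.28, adjusted p = 0.0793), by adjusted p alone 2 were lower, and the median was -0.20.

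**Figure D5:**
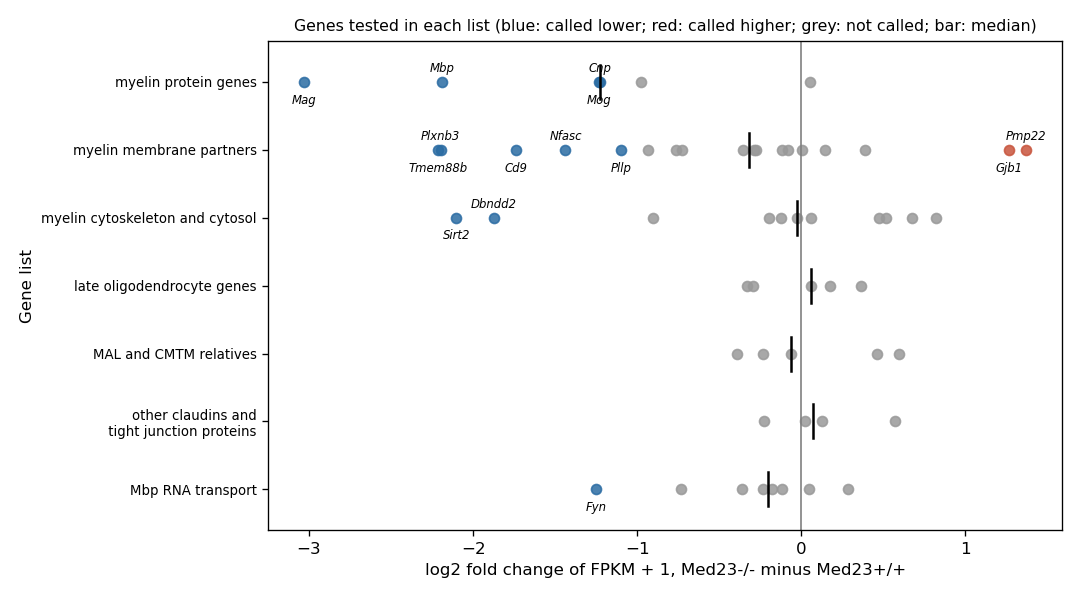
Log2 fold change of FPKM + 1 (Med23-/- minus Med23+/+) of each gene tested in 7 lists, 1 list per row; blue points were called lower, red points higher, grey points were not called, and black bars are medians. The myelin protein genes have a median of -1.23, the membrane partners -0.32, and the late oligodendrocyte genes 0.06. Of the 12 late genes only 5 were tested, some of them near 1 FPKM.

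Markers of other stages and cell types moved as well, and their part in the myelin results was not tested. Of 6 OPC markers 3 were called higher: Pdgfra (1.47), Cspg4 (1.39) and Cspg5 (1.30); the lowest was Matn4 (-0.64), Ptprz1 had the highest mean, and the summed level was 666 to 861 FPKM in Med23+/+ and 1099 to 1192 FPKM in Med23-/- libraries. Of 8 neuron markers 5 were called higher (Stmn2, Gad1, Syt1, Snap25 and Rbfox3, from 1.05 to 1.54) and 7 by adjusted p alone, Nefl being the lowest (0.80) and Snap25 having the highest mean, with a sum of 47.6 to 76.3 FPKM in Med23+/+ and 96.9 to 198 FPKM in Med23-/- libraries. Of 8 astrocyte markers 3 were called lower (Fgfr3 at -2.05, Gfap at -1.70 and Aqp4 at -1.29), with a sum of 128 to 183 and 94.2 to 147 FPKM. Aqp4 overlapped between genotypes, and Gfap was 30.0 FPKM in Med23+/+ replicate 1 against 6.56 to 10.8 FPKM in the other Med23+/+ libraries. The highest log2 fold change among the 8 markers was that of Slc1a2 (0.67, adjusted p = 0.0222, limma). The highest mean was that of Aldoc, at 50.7 ± 8.80 and 50.9 ± 10.6 FPKM.

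Markers of microglia, endothelial cells and Schwann cells were low in both genotypes. The 8 microglia markers summed to 1.02 to 2.04 FPKM in Med23+/+ and 1.73 to 2.37 FPKM in Med23-/- libraries, with P2ry12 the highest, and the 6 Schwann cell markers to 1.05 to 1.68 and 1.39 to 1.90 FPKM, with Prx the highest and Foxd3 listed at 0 throughout. The 6 endothelial markers summed to 0.509 to 1.19 and 1.17 to 2.97 FPKM, mostly from Kdr. The 6 mural and fibroblast markers summed to 1.57 to 8.25 and 3.13 to 14.3 FPKM; of these Col1a1 had the highest mean, and the tested ones were Acta2 (0.25, adjusted p = 0.441) and Col1a1 (1.00, adjusted p = 0.258).

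The 5 genes outside the list whose log2(FPKM + 1) ran most like the mean of the 6 tested genes (each standardized) over the 8 libraries were Taf13 (r = 0.999), Tfeb (r = 0.997), Fchsd2 (r = 0.996), Elovl7 (r = 0.995) and Dixdc1 (r = 0.995). These correlations take in the gap between the 2 genotypes. For deviations from the genotype means, r was 0.952 for Taf13, 0.961 for Tfeb, 0.938 for Fchsd2, 0.864 for Elovl7 and 0.903 for Dixdc1, in the same libraries from which the genes were picked. Taf13 was 39.7 ± 4.03 and 23.3 ± 2.23 FPKM in Med23+/+ and Med23-/- iOLs, and Dixdc1 was 17.4 ± 2.47 and 5.52 ± 1.42 FPKM. Each tested gene was also set against the mean of the other tested genes, itself left out. There Mag had r = 0.948, Mbp 0.929, Cnp 0.917, Mog 0.868, Cldn11 0.807 and Gpm6b -0.16. These means differ from the one used for Taf13 and the rest, so the 2 sets of r are not directly comparable.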

How the data were processed

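RNA-seq values of 8 libraries were analysed, 4 Med23+/+ and 4 Med23-/-, grouped by the labels. Per the study's methods and the submitters' processing notes, the authors trimmed reads with Cutadapt and mapped them by TopHat2 on mm10, and deposited FPKM values per library made by Cuffdiff with bias and multi-read correction. Tool versions, the annotation, the strand setting and the normalization between libraries were not given in the sources used here. The deposited table also holds pooled genotype values, fold changes, test statistics and significance calls, which were not used. 0 columns of per-library values were left out. Read counts were not used here, so depth is unknown. Low values did not give a stable estimate of what 1 read is worth in each library.

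Values were transformed to log2(FPKM + 1), and genes averaging 1 FPKM or more were fitted, 12328 of 24346. The fit used R 4.3.3 and limma 3.58.1, its eBayes step allowing a trend of variance on mean level, and Benjamini-Hochberg adjustment ran over all 12328. Calls needed a fold change over 2 on that scale besides an adjusted p < 0.05. Single genes were also compared with a two-sided exact permutation test over its 70 arrangements. The comparison was tested on simulated data with 200 genes of 12328 changed by 2 on the log2 scale, and it called 199 of them and 0 others. The simulated noise was normal and independent, and the change set was larger than the call limit. Recovery of changes near the limit, such as those of Mog, Cnp and Cldn11, was therefore not tested. Genes named are the 9 genes, Med23, the tested genes at both ends of each list, those called in it, the gene of a marker list with the highest mean, and the 5 genes most like the 9; Sox10, Olig1 and Olig2 form the lineage list. Dnajc7 is named for its overlap with Cnp, and Foxd3 and Klk6 were named after their values were seen. The genes and lists were chosen with earlier results of these data known, and some genes are not reported here.

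Gene positions came from GENCODE vM21 (mm10) and promoter windows from RefSeq (GRCm38.p6). Tables and figures used pandas 2.3.3, numpy 2.4.6 and matplotlib 3.10.9 under Python 3.11.15. The alternatives were a pseudocount of 0.1, no filter and a mean of at least 5 FPKM, quantile and median-ratio scaling, and no variance trend. Further ones were a replicate block, replicates 1 and 2 against 3 and 4, and leaving out each library. The fold limit was also dropped, or taken from mean FPKM, and the adjusted p limit was not varied.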

Additional observations from a re-analysis of the deposited data

Results flagged for a closer look

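Libraries were examined in 116 groups, 58 named genes in each of the 2 genotypes, for a highest or lowest library set far apart from the other 3 (Dixon's test at 95%). This happened in 9 groups, and chance alone gives about 1 in 20.

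Among the myelin protein genes, Mag in Med23-/- replicate 3 stood at 1.47 FPKM, while the other 3 Med23-/- libraries lay between 0.597 and 0.699 FPKM. Without that library the log2 fold change of Mag was -3.17 in place of -3.03. Of the membrane partners, Pllp in Med23-/- replicate 4 stood at 49.5 FPKM, below the 75.8 to 81.0 FPKM of the others.

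Sox10 in Med23+/+ replicate 2 stood at 220.4 FPKM against 263 to 269 FPKM, Cspg4 in Med23+/+ replicate 4 at 51.5 FPKM against 34.3 to 35.2 FPKM, and Tfeb in Med23+/+ replicate 3 at 7.23 FPKM against 5.64 to 5.90 FPKM. Markers of other cells set apart in 1 library were Aqp4 in Med23-/- replicate 3 at 4.86 FPKM, Snap25 in Med23+/+ replicate 1 at 16.5 FPKM, Kdr in Med23+/+ replicate 1 at 0.963 FPKM and Acta2 in Med23-/- replicate 3 at 2.63 FPKM.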

How the results depend on the processing

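The number of myelin protein genes called lower was 4 in the reported comparison and 3 to 5 over the 19 alternatives, and 0 were called higher in any of them. Mag, Mbp and Cnp were called in all 19 and Mog in the 18 that tested it; with a mean of at least 5 FPKM Mog was no longer tested, which gave the 3. Cldn11 made the 5 in 5 alternatives. Leaving out 1 library at a time gave 4 to 5 such genes. Of the 3 lists of membrane partners, cytoskeleton and cytosol, and late genes, 7 were called lower, with 6 to 8 when 1 library was left out and 11 by adjusted p alone. In those lists 2 were called higher, with 1 at a mean of at least 5 FPKM and 6 by adjusted p alone. Over all genes 216 were called lower and 367 higher. These counts were 1738 and 1957 by adjusted p alone, 330 and 882 with a pseudocount of 0.1 and no filter, 273 and 654 with a pseudocount of 0.1, and 278 and 681 with the fold taken from mean FPKM. Counting letters only in the 250 bases before the start, 1 gene in place of 2 held GGGCGG, and the counts for the other letters were 5, 2, 2 and 0. The order of levels was the same after median-ratio scaling.

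The replicate numbers were checked for pairing between genotypes. The deviations of same-numbered libraries correlated at r = 0.130, -0.096, -0.026 and 0.159, and 3 of 8 libraries correlated best with their own number, so the numbers were not taken as pairs. With the replicate number as a block, 4 myelin protein genes were called lower, 7 genes of the 3 lists were called lower, and 216 and 371 of all genes were called lower and higher.

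Depth is unknown and sets what can be said of Mobp, Mal and Opalin. Tested without a filter, their adjusted p was 0.921, 0.910 and 0.584 (limma).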
